A study of Mus musculus with 6 samples.

Results

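The fatty acid synthesis genes Fasn, Acaca, Acly, Scd1, Scd2, Elovl6, Srebf1, Me1, Thrsp and Mlxipl were read from the deposited table by gene symbol, which gave 10 rows of 32771. All 10 passed the filter on low counts, as did 19241 genes of the table. RNA of the aorta had been sequenced in 6 libraries of wild-type (WT) mice, and all 6 came from mice given AngII/BAPN, that is angiotensin II with beta-aminopropionitrile, an inhibitor of lysyl oxidase, a combination used to provoke aortic dissection. The groups differed in what was given with it: an antibody against the secreted collagen triple helix repeat protein CTHRC1 in 3 libraries (replicates 5, 7 and 39) and an isotype IgG in 3 libraries (replicates 14, 18 and 20). The labels give no age, sex, dose or time, and do not state that the libraries are different animals, so the spread behind each p-value may be technical. There is no group without AngII/BAPN, so every value is a difference between antibody and IgG on that background.

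New fatty acids are made in the cytosol from acetyl-CoA, which ATP citrate lyase (Acly) splits from citrate exported by mitochondria. Acetyl-CoA carboxylase (Acaca) turns it into malonyl-CoA, fatty acid synthase (Fasn) builds palmitate with NADPH that malic enzyme (Me1) helps to supply, and elongases and stearoyl-CoA desaturases (Elovl6, Scd1, Scd2) lengthen and desaturate the product. The pathway is set largely at the level of transcription by SREBP-1 (Srebf1) and the glucose-responsive factor ChREBP (Mlxipl), and around the aorta it is best known from perivascular adipose tissue.

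Total counts per library ran from 64556253 to 67859566. Antibody replicate 39 lay between replicates 5 and 7 in all 10 genes, as it did in 51.9% of all tested genes, and whether it is independent of them was not tested. IgG replicate 14 had the lowest share of mitochondrial counts, 12.3%, where the other libraries had 15.7% to 22.8%. Smooth muscle markers, the defining transcripts of the aortic wall, were detected in every library, with 10 of 10 above 0 and a summed level of 2530 to 5700 CPM (counts scaled to library size with TMM factors) after the antibody and 3570 to 8220 CPM after IgG.

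All 10 genes had a higher mean after the antibody, with fitted folds from 1.96 (Scd2) to 3.19 (Fasn), but none passed the threshold of an adjusted p under 0.05 in edgeR's quasi-likelihood test, which called 0.104% of all tested genes higher. Their adjusted p ran from 0.106 (Me1) to 0.316 (Elovl6) in edgeR, and 9 of the 10 had an unadjusted p under 0.05, where 7.80% of tested genes were higher with such a p and 17.1% had one in either direction. The DESeq2 Wald test on the same counts called 9 of the 10 higher, all but Elovl6, where it called 2.78% of its tested genes higher and 4.70% lower, so the call depends on the tool. In limma-voom 0 of the 10 passed, with 9 at an unadjusted p under 0.05. Of the 19241 genes tested there, 0.26% passed and 2899 had such a p, in either direction. The median log2 fold change of the 10 genes was 1.35, against -0.02 over all tested genes. Summed over the 10 genes, the antibody libraries held 13130, 22560 and 18360 CPM (replicates 5, 7 and 39) and the IgG libraries 7682, 8874 and 6168 CPM (replicates 14, 18 and 20). Every antibody library was above every IgG library in this sum, of which Scd1 was the largest part in every library, with 7542 of the 13130 CPM in antibody replicate 5 and 5869 of the 8874 CPM in IgG replicate 18.

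In bulk tissue, more cells of a type cannot be told apart from more RNA per cell, and this bears on every value here because adipocyte markers moved with the groups. The list of 15 markers was fixed with earlier results of these data known, so its counts are a description only. All 15 adipocyte markers had positive log2 fold changes, with a median of 1.32, and their summed level was 9290 to 16100 CPM after the antibody and 3970 to 8480 CPM after IgG, with no marker at 0 in any library. At an unadjusted p under 0.05 in edgeR 11 of the 15 were higher (7.80% of all tested genes), and DESeq2 called 9 higher (2.78%). After adjustment 1 of the 15 passed in edgeR, which called 0.104% of all tested genes higher. It was Lep, the gene of the fat hormone leptin, which rose from 6.0 ± 2.07 to 33.6 ± 9.96 CPM (SD, n = 3 each, adjusted p = 0.0412, edgeR). Retn, the resistin gene, was at 97.9 ± 13.8 against 30.7 ± 15.9 CPM (adjusted p = 0.121, edgeR). With the mean adipocyte marker level as a covariate the median of the 10 genes was 1.41 on the log2 scale. There 0 of the 10 passed in edgeR, as did 0 of all 19241 tested genes. Of the 10, 1 had an unadjusted p under 0.05, where 699 of all tested genes had one in either direction. The single genes moved in both directions in that fit, Srebf1 from 1.31 to 0.26 and Mlxipl from 1.51 to 0.78, Acly from 1.41 to 2.55, Elovl6 from 1.09 to 2.33 and Me1 from 1.40 to 2.04, with standard errors of 0.54 (Scd2) to 1.34 (Elovl6) over the 10. As the marker level and the groups run together, the amount of fat and the antibody cannot be told apart in these libraries.

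Levels were compared between genes on the FPKM scale, which is per kilobase. Scd1, a stearoyl-CoA desaturase that makes oleate, stood far above the rest, at 1748 ± 272 FPKM after the antibody and 886 ± 236 FPKM after IgG (SD, n = 3 each, as for all means below). Fasn followed at 395 ± 135 against 134 ± 74.1 FPKM, then Thrsp at 270.5 ± 123 against 124 ± 43.7, Acly at 169.6 ± 61.1 against 69.5 ± 38.5 and Me1 at 146 ± 12.3 against 59.4 ± 27.6 FPKM. From Fasn to Me1 each gene overlapped with its neighbour in that order within each group, while Scd1 overlapped with none. Compared library by library, Fasn and Thrsp were both above Acly and Me1 throughout. Thrsp was above Fasn in IgG replicates 18 and 20, and Me1 above Acly in antibody replicate 5 and IgG replicate 20. The order within these pairs is thus not resolved. Scd2 was at 73.1 ± 11.4 against 39.8 ± 12.8 FPKM, and overlapped with Me1 after IgG but not after the antibody. Acaca (52.0 ± 17.6 against 19.6 ± 6.32 FPKM) and Srebf1 (48.8 ± 15.7 against 20.7 ± 5.30 FPKM) overlapped with each other, and with Scd2 after the antibody only. Within each library Scd2 was above both. Elovl6 (16.2 ± 6.91 against 8.21 ± 4.28 FPKM) and Mlxipl (15.7 ± 7.50 against 5.86 ± 0.755 FPKM) were lowest, below Acaca and Srebf1 in both groups, and overlapped with each other.

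**Figure D1:**
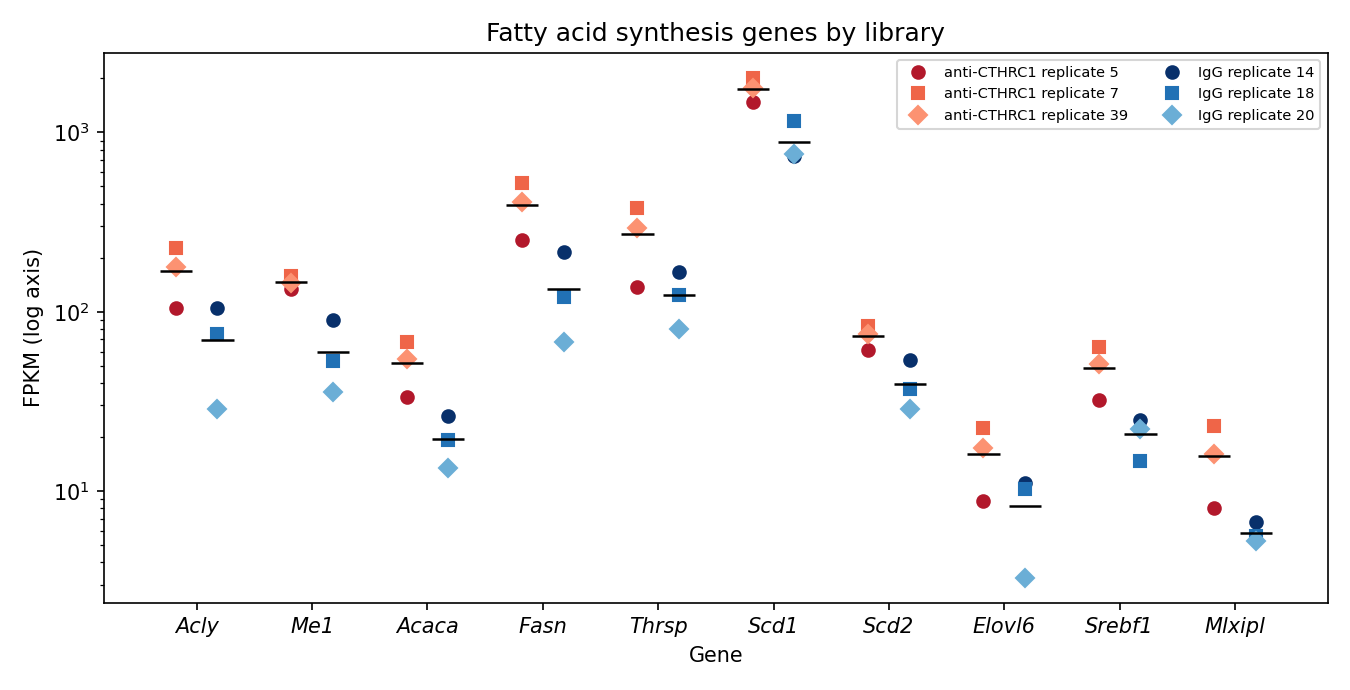
FPKM of each gene in each library on a log axis, with genes in pathway order (carbon and NADPH supply, synthesis, desaturation and elongation, transcription factors). Red and orange symbols are the 3 antibody libraries, blue symbols the 3 IgG libraries, and black lines the group means. Scd1 is highest in every library, and on this scale the groups overlap in Elovl6, in Thrsp and, by a narrow margin, in Acly.

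Promoter sequence was available from RefSeq (GRCm38.p6, 250 bases before to 50 after an annotated start) for 8 of the 10 genes, all but Scd1 and Scd2. The 4 letter patterns searched on both strands were the E-box CACGTG, a sterol response element written TCACNCCAC, the CCAAT box CCAAT and the GC box GGGCGG, all bound by factors known to act on lipogenic promoters. Fasn is shown as the gene with the largest fold, Acly and Thrsp as genes whose groups touch or overlap, and Mlxipl because it alone among the 8 held the E-box and sterol letters. The window of Elovl6, whose groups overlap too, is not shown. It held none of the 4 patterns, nor did the Acaca window. Capitals mark the matches, in either orientation, and each sequence is on the strand of its gene.
Fasn, chr11:120824498-120824797, minus strand: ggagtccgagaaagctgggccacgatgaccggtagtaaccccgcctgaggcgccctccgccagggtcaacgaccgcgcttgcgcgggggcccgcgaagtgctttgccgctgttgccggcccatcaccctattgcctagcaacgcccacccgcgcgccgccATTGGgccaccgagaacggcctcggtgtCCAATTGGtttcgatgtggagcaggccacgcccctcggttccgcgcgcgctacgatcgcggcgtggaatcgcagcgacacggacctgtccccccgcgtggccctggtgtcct
Acly, chr11:100527951-100528250, minus strand: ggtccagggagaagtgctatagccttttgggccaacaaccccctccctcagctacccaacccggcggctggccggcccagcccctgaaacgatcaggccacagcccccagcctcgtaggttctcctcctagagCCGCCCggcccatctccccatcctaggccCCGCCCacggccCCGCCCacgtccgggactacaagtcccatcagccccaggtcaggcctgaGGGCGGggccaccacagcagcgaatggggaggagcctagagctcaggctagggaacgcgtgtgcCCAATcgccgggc
Thrsp, chr7:97417501-97417800, minus strand: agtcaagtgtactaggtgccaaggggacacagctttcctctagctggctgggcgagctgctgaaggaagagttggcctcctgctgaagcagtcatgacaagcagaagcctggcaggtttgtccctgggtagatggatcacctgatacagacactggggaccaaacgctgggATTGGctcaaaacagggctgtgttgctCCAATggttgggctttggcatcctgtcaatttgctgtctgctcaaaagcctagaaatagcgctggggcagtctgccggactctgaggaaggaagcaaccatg
Mlxipl, chr5:135089640-135089939, plus strand: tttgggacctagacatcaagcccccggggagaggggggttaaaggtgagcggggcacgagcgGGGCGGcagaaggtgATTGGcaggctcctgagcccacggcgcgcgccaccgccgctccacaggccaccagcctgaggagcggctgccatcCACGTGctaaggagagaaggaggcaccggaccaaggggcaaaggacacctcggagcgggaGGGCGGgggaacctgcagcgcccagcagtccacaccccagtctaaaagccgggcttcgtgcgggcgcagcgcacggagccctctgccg

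The Fasn window held 3 CCAAT boxes, beginning 90, 62 and 59 bases before the start, of which the latter pair share letters, and none of the other patterns. The Thrsp window held 2, and the Acly window 1 with 4 GC boxes. The Mlxipl window held 1 E-box, 98 bases before its start, with 1 CCAAT box and 2 GC boxes, and the match to the sterol letters lay in another Mlxipl window, at chr5:135106641-135106940. Among genes, the CCAAT box was in 6 of the 8 (41.1% of all 27025 genes in the table), the GC box in 4 (38.2%), the E-box in 1 (8.09%) and the sterol letters in 1 (1.44%). A match describes letters in a window of 300 bases only, and other lipogenic sites can lie outside it or be spelled otherwise.

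Of the enzymes that supply carbon and reducing power, Me1 had the smallest p of the 10 genes. Me1 (ENSMUSG00000032418, chromosome 9, 86581371 to 86695953 on GRCm38), the cytosolic malic enzyme that yields NADPH, was at 540, 673 and 599 CPM after the antibody (replicates 5, 7 and 39, the order kept below), and at 323, 211 and 154 CPM after IgG (14, 18 and 20, likewise). The antibody libraries lay close together, within 1.25-fold of each other, and all above the IgG libraries. The fitted difference was 1.40 (log2, SE 0.27, adjusted p = 0.106, edgeR). It was the 1 member whose edgeR call changed when a library was left out: without IgG replicate 14 it passed, at 1.73 on the log2 scale and an adjusted p of 0.0271 (edgeR), a fit in which 0.96% of tested genes were called.

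Acly (ENSMUSG00000020917, chromosome 11, 100476353 to 100528000), which cleaves citrate to acetyl-CoA, was at 583, 1322 and 1004 CPM after the antibody and at 519, 409 and 169.8 CPM after IgG. Within IgG, replicate 20 was well below the others, 3.06-fold under replicate 14. Antibody replicate 5 and IgG replicate 14 were almost level: on the TMM scale they did not overlap, while on the FPKM scale, at 105 and 105.1, they did by a narrow margin. The antibody group was higher by 1.41 (log2, SE 0.46, adjusted p = 0.215, edgeR).

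At the synthesis step, Fasn had the widest fold of the 10 genes. Fasn (ENSMUSG00000025153, chromosome 11, 120805846 to 120824547), the multienzyme that makes palmitate, was at 2903, 6299 and 4824 CPM after the antibody and at 2194, 1369 and 835 CPM after IgG. All antibody libraries were above all IgG libraries, but antibody replicate 5 stood nearer to IgG replicate 14 than to antibody replicate 7. The difference of 1.67 (log2, SE 0.43, adjusted p = 0.159, edgeR) became 1.40 without antibody replicate 7 and 2.08 without IgG replicate 14.

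Acaca (ENSMUSG00000020532, chromosome 11, 84129672 to 84401645), the acetyl-CoA carboxylase of the cytosol, was at 597, 1285 and 1002 CPM after the antibody and 417, 339 and 259 CPM after IgG. The groups did not overlap, and the antibody libraries spread over 2.15-fold where the IgG libraries spread over 1.61-fold. On the log2 scale they were 1.51 apart (SE 0.31, adjusted p = 0.116, edgeR).

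Thrsp (ENSMUSG00000035686, chromosome 7, 97412938 to 97417730) encodes Spot 14, a small thyroid hormone responsive protein tied to lipogenesis. It was at 316, 921 and 689 CPM after the antibody and 343, 282 and 197 CPM after IgG. Here the groups overlapped, since antibody replicate 5 lay below IgG replicate 14. The difference was 1.23 (log2, SE 0.40, adjusted p = 0.212, edgeR), and 0.88 without antibody replicate 7.

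Of the enzymes that finish the fatty acid, the elongase had the largest standard error of the 10 and Scd2 the smallest. Scd1 (ENSMUSG00000037071, chromosome 19, 44394455 to 44407709) was at 7542, 10870 and 9277 CPM after the antibody and 3378, 5869 and 4180 CPM after IgG. It was the 1 gene of the 10 in which IgG replicate 14 was the lowest IgG library, and the groups did not overlap. They differed by 1.04 (log2, SE 0.27, adjusted p = 0.159, edgeR).

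Scd2 (ENSMUSG00000025203, chromosome 19, 44293674 to 44306864), the neighbouring desaturase gene, was at 349, 503.5 and 440 CPM after the antibody and 275, 209 and 176 CPM after IgG. The groups did not overlap, and their difference of 0.97 (log2, SE 0.21, adjusted p = 0.128, edgeR) was the smallest of the 10. Scd1 and Scd2 are close paralogs, and how reads matching several genes were counted is not given in the sources used here, so their split carries that uncertainty. On the FPKM scale Scd1 was 24.1, 24.1 and 23.6 times Scd2 after the antibody, and 13.7, 31.4 and 26.6 times after IgG. The ratio was thus nearly the same in the antibody libraries and varied widely among the IgG libraries.

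Elovl6 (ENSMUSG00000041220, chromosome 3, 129532355 to 129634971), which lengthens palmitate to stearate, was at 59.1, 159 and 119.5 CPM after the antibody and 66.7, 68.3 and 23.8 CPM after IgG. Antibody replicate 5 lay within the IgG range, below replicates 14 and 18. At a difference of 1.09 (log2, SE 0.49, adjusted p = 0.316, edgeR) it was the 1 member with an unadjusted p above 0.05, at 0.0614, and the 1 member that DESeq2 did not call (adjusted p = 0.0891).

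The transcription factor genes were among the lower of the 10 in level. Srebf1 (ENSMUSG00000020538, chromosome 11, 60199089 to 60222581), which encodes SREBP-1, was at 191, 394 and 308 CPM after the antibody and 132, 86.4 and 141 CPM after IgG. It was the 1 gene of the 10 in which IgG replicate 20 was the highest IgG library on the TMM scale (on FPKM it was replicate 14), and the groups did not overlap. The log2 difference was 1.31 with an SE of 0.30 (adjusted p = 0.14, edgeR). Gene-level counts do not separate the SREBP-1a and SREBP-1c transcripts. In GENCODE M21, Srebf1 shares 109 exonic bases, 1.93% of its own, with Rai1 on the opposite strand, and whether counting used strand is not given.

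Mlxipl (ENSMUSG00000005373, chromosome 5, 135089890 to 135138382), which encodes ChREBP, was at 46.7, 141 and 96.2 CPM after the antibody and 34.8, 32.2 and 32.8 CPM after IgG. The IgG libraries lay within 1.08-fold of each other, the narrowest of the 10 genes, while the antibody libraries spread over 3.01-fold, the widest. A difference of 1.51 (log2, SE 0.36, adjusted p = 0.148, edgeR) over all libraries was 1.11 without antibody replicate 7 and 1.83 without antibody replicate 5.

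**Figure D2:**
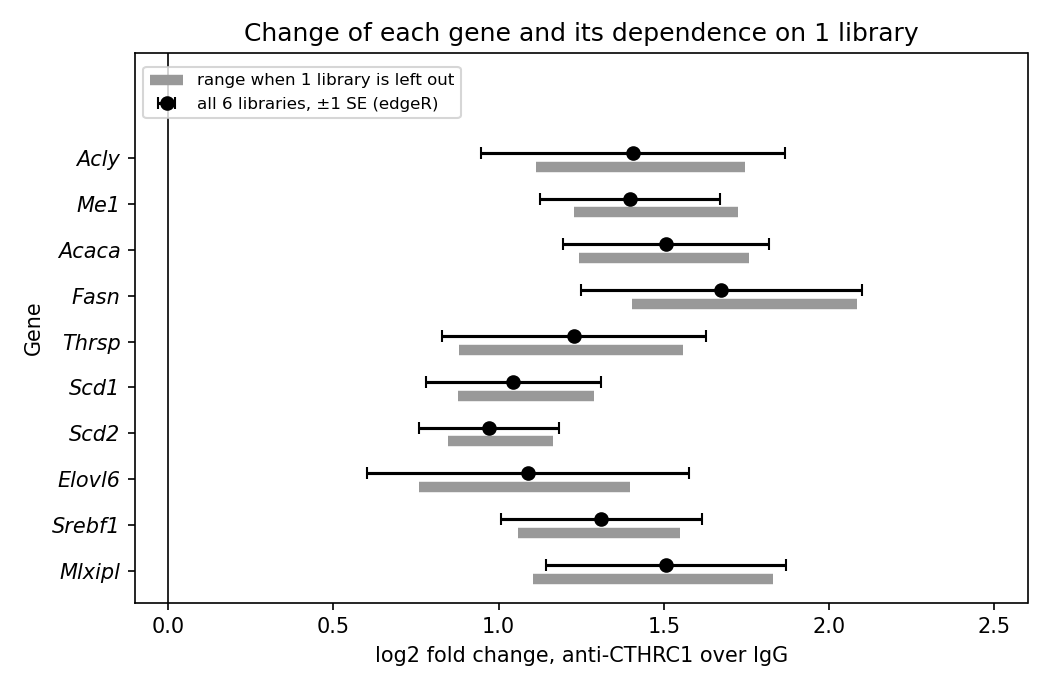
Log2 fold change of each gene, anti-CTHRC1 over IgG, from edgeR on all 6 libraries (points, bars of 1 SE) and its range when each library in turn is left out (grey bars). Every point and every grey bar lies above 0, and the lowest value reached is 0.76 for Elovl6 without antibody replicate 7.

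Across libraries the genes shared much of their order. Antibody replicate 7 was the highest and replicate 5 the lowest antibody library in 10 of 10 genes. IgG replicate 14 was the highest IgG library in 7 genes and replicate 20 the lowest in 7, on the TMM scale. Over the 45 pairs of the 10 genes, Pearson's r of log2 CPM across the 6 libraries ran from 0.655 (Elovl6 and Srebf1) to 0.995 (Fasn and Scd2), a description of libraries that also differ by group. The groups did not overlap in 8 of the 10 genes on the TMM scale, where 11.0% of tested genes were higher without overlap. On FPKM, and on CPM without TMM, they did not overlap in 7, since Acly then overlapped too, against 7.29% and 7.26% of tested genes. Among the antibody libraries the ratio of Fasn to Acaca on FPKM was 7.58, 7.64 and 7.51, and that of Fasn to Acly 2.40, 2.30 and 2.32. Among the IgG libraries Fasn to Acaca was 8.20, 6.30 and 5.03. These proportions varied less among the antibody libraries than among the IgG libraries, while Fasn to Me1, at 1.89, 3.29 and 2.83 after the antibody and 2.39, 2.28 and 1.91 after IgG, varied more. Fasn to Elovl6 was 28.85, 23.2 and 23.7 after the antibody and 19.3, 11.8 and 20.6 after IgG. The ratio of Fasn to Srebf1 was 7.84 to 8.56 in 5 libraries and 3.05 in IgG replicate 20. Fasn was thus low in IgG replicate 20 relative to Srebf1 as well as in level. Scd1 to Fasn was 5.81, 3.86 and 4.30 after the antibody and 3.45, 9.60 and 11.2 after IgG.

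Set against the adipocyte markers, the 10 genes differed between the groups by less than the spread of the libraries. The mean log2 CPM of the 10 genes minus that of the 15 markers was 0.86, 1.40 and 1.36 after the antibody, and 1.76, 1.76 and 0.20 after IgG. The group difference was -0.03 (1.21 ± 0.30 against 1.24 ± 0.90, SD, n = 3 each, exact permutation test, two-sided, p = 1), in a design whose smallest possible p is 0.1. IgG replicate 20 stood apart in this measure: its adipocyte markers were at a mean of 7.42 log2 CPM, above 6.61 and 6.36 in IgG replicates 14 and 18, while its 10 synthesis genes were at 7.63 log2 CPM, below 8.36 and 8.11. Without IgG replicate 20 the difference was -0.55, and the 3 antibody libraries were then all below the 2 IgG libraries (exact p = 0.1, the smallest that 3 against 2 allows). Without IgG replicate 14 it was 0.23 and without IgG replicate 18 it was 0.22, of the opposite sign, with exact permutation p = 0.8 for each.

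**Figure D3:**
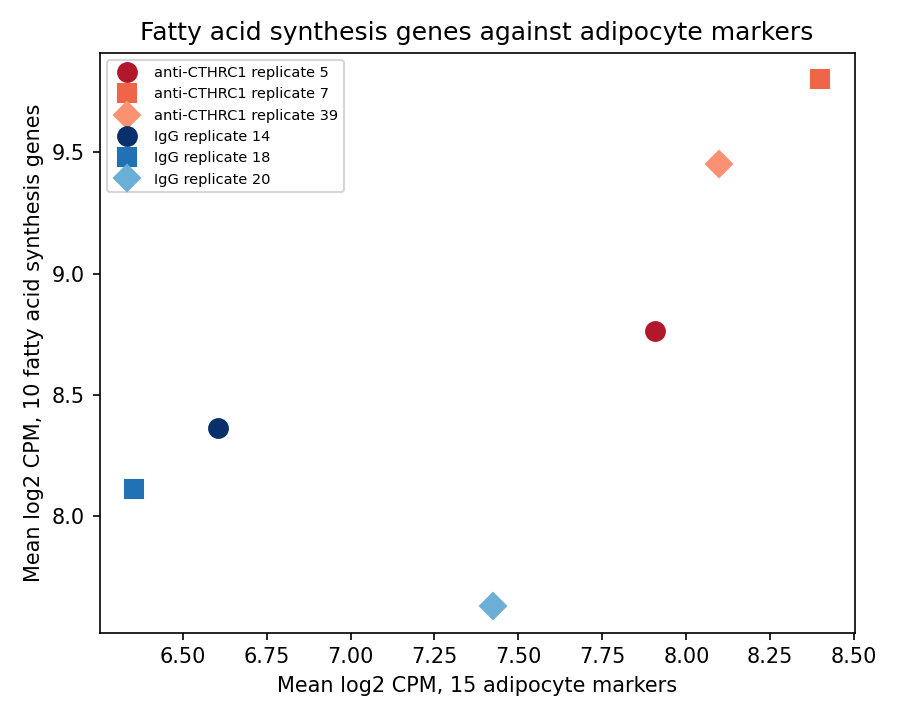
Mean log2 CPM of the 10 fatty acid synthesis genes (vertical axis) against that of the 15 adipocyte markers (horizontal axis), with 1 point per library, red and orange for antibody and blue for IgG. IgG replicate 20 lies lowest on the vertical axis at 7.63 but at 7.42 on the horizontal axis, between the other IgG libraries and the antibody libraries.

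Other cell types were read from their marker lists, which were also fixed with earlier results of these data known. Over all tested genes, 11.0% were higher and 11.0% lower without overlap. After adjustment edgeR called 0.104% higher and 0.213% lower. At an unadjusted p under 0.05 in edgeR, 7.80% were higher and 17.1% differed in either direction. DESeq2 called 2.78% of its tested genes higher and 4.70% lower. Brown adipocyte markers overlapped between the groups, with summed levels of 515, 1764 and 1217 CPM after the antibody and 605, 720 and 635 CPM after IgG. Antibody replicate 5 lay below all IgG libraries, and replicates 7 and 39 above them. The median log2 fold change was 0.80, with 8 of 10 positive and 0 genes called in edgeR (1 with an unadjusted p under 0.05, and 1 called in DESeq2). Macrophage markers were lower in summed level, 861 to 1230 against 1580 to 2150 CPM, with 10 of 10 log2 fold changes negative, 8 lower without overlap, 8 lower at an unadjusted p under 0.05 and 7 called lower in DESeq2. In edgeR 1 of the 10, Mpeg1, fell (43.5 ± 2.15 against 186 ± 33.5 CPM, adjusted p = 0.0156, edgeR). Fibroblast markers had summed levels of 21100 to 29700 against 12800 to 21300 CPM, which overlapped narrowly, with 7 of 8 log2 fold changes positive and a median of 0.53. Of these markers 4 were higher without overlap, 4 were higher at an unadjusted p under 0.05, 3 were called higher in DESeq2 and 0 in edgeR. Smooth muscle markers had a median log2 fold change of -0.62 with 0 of 10 positive and 0 called in edgeR (3 lower with an unadjusted p under 0.05, 2 in DESeq2). Schwann cell markers, which matter because myelin-forming cells also make fatty acids, overlapped at 360 to 401 against 290 to 386 CPM. Heart muscle markers overlapped in summed level, 252 to 535 against 44.1 to 743 CPM, although Myl7 and Myl4 of the 8 passed upward in edgeR (29.3 ± 9.20 against 1.55 ± 0.64 CPM and 36.7 ± 8.50 against 6.41 ± 0.36 CPM, adjusted p = 0.0194 and 0.0156). Of the heart muscle markers 7 of 8 were positive, with a median of 0.41, which was 2.73 without IgG replicate 14. Endothelial markers overlapped at 985 to 1210 against 742 to 1280 CPM, with 5 of 8 positive and a median of 0.06. Skeletal muscle markers overlapped at 41.7 to 401 against 33.4 to 203 CPM, with 8 of 8 positive and 0 at an unadjusted p under 0.05 in edgeR. Their median was 0.96, and -0.93 without antibody replicate 39. Hepatocyte markers, liver being the other large site of this pathway, overlapped at 340 to 528 against 102 to 1100 CPM, with a median of -1.42 over the 6 of 8 that were tested, 5 of them negative. Nearly all of that sum was Cyp2e1, at 335, 525 and 456 CPM after the antibody and 207, 100.3 and 1098 CPM after IgG. Apoa1, Ttr, Apob and F2 were at 0 in at least 1 library, and Alb was at most 16.2 CPM. Itgam, a macrophage integrin gene, had an adjusted p of 0.0869 (edgeR), and the smallest adjusted p in the lists without a called gene was 0.258 for Otop1 (brown fat), 0.153 for Des (smooth muscle), 0.141 for S100b (Schwann cells), 0.351 for Kdr (endothelium), 0.147 for Clec3b and Dpt (fibroblasts), 0.437 for Myh1 (skeletal muscle) and 0.339 for Alb. The part of these cell types in the values of the 10 genes was not tested.

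The other genes of lipid synthesis were read from 11 pathway lists with 120 genes, all tested. None passed in edgeR, where 41 were higher and 5 lower with an unadjusted p under 0.05, and DESeq2 called 30 higher and 2 lower. Over all tested genes 7.80% were higher and 17.1% differed in either direction with such a p. DESeq2 called 2.78% of its tested genes higher and 4.70% lower. Carbon supply was nearest to the 10 genes. Of the 9 genes for citrate export and acetyl-CoA supply all had positive log2 fold changes, with a median of 0.94. Slc25a10, the mitochondrial dicarboxylate carrier, was at 104 ± 17.5 against 40.7 ± 12.6 CPM (1.36 as a log2 difference, SE 0.24, adjusted p = 0.0869, edgeR). Pcx, pyruvate carboxylase, was at 416 ± 102.5 against 160.1 ± 45.3 CPM (1.38, SE 0.26, adjusted p = 0.104, edgeR). Neither overlapped between groups. Genes of NADPH supply had a median of 0.52 with 8 of 10 positive, and the 2 with the smallest p were Idh1, the cytosolic isocitrate dehydrogenase (175 ± 33.7 against 96.6 ± 11.6 CPM, adjusted p = 0.109, edgeR), and Taldo1, a transaldolase of the pentose phosphate pathway (223 ± 67.7 against 122.5 ± 14.4 CPM, adjusted p = 0.172, edgeR).

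The lists of further elongation and desaturation genes had medians near 0, where Elovl6, Scd1 and Scd2 were at 0.97 to 1.09. These lists hold partner enzymes, such as Tecr and Cyb5b, beside elongases and desaturases, and the Scd paralogs in them were higher (below). The elongation list had a median of 0.11 with 8 of 12 positive, and the desaturation list a median of -0.04 with 4 of 10 positive. Elovl2, at -4.04, was carried by IgG replicate 14. Elovl5, an elongase of polyunsaturated fatty acids, was at 145 ± 13.9 against 94.0 ± 9.16 CPM (0.63 as a log2 difference, SE 0.12, adjusted p = 0.107, edgeR), and Tecr, the reductase of the elongation cycle, at 94.2 ± 5.63 against 61.1 ± 10.5 CPM (adjusted p = 0.131, edgeR). Cyb5b, a cytochrome b5, was at 206 ± 40.6 against 118 ± 9.88 CPM (adjusted p = 0.117, edgeR). Scd3, a further paralog of Scd1, was low, at 1.52 ± 0.31 against 0.69 ± 0.18 CPM (1.14 as a log2 difference, adjusted p = 0.225, edgeR). Scd4, another paralog, was as low, at 1.04 ± 0.31 against 0.57 ± 0.09 CPM (0.85, adjusted p = 0.361, edgeR). The groups did not overlap in Scd3 or in Scd4. The list of mitochondrial fatty acid synthesis with Acacb and its regulators had 9 of 9 positive and a median of 0.56. In it Mecr, the enoyl reductase of mitochondria, was at 35.9 ± 11.7 against 19.3 ± 3.10 CPM and Acsf3, a malonyl-CoA synthetase, at 28.3 ± 8.20 against 16.8 ± 1.53 CPM (adjusted p = 0.183 and 0.192, edgeR).

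For the steps after synthesis, triglyceride assembly had 10 of 16 positive and a median of 0.33. Pnpla3, a lipid droplet protein whose gene is known as a target of SREBP-1c and ChREBP, was at 62.8 ± 33.7 against 16.4 ± 2.34 CPM (1.94 as a log2 difference, SE 0.42, adjusted p = 0.123, edgeR). Agpat2, an acyltransferase needed for adipose tissue, was at 367 ± 144 against 147 ± 31.2 CPM (1.32, SE 0.32, adjusted p = 0.148, edgeR). In acyl-CoA activation 6 of 8 were positive, with a median of 0.36, and Acsl1 and Acss3 had the smallest p (adjusted p = 0.261 and 0.251, edgeR), both with overlapping groups.

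Among regulators, SREBP processing and feedback genes had a median of -0.06 with 4 of 9 positive. Insig1, the retention factor of SREBP that is itself an SREBP target, was at 59.5 ± 8.75 against 34.6 ± 13.5 CPM (adjusted p = 0.258, edgeR), and Mbtps1, the site-1 protease, at 209 ± 12.1 against 169.9 ± 2.69 CPM (adjusted p = 0.217, edgeR). The list of LXR, MLX and other partners had 11 of 13 positive and a median of 0.18. Mlx, the dimer partner of ChREBP, was at 37.8 ± 1.26 against 26.0 ± 2.26 CPM (0.54 as a log2 difference, SE 0.10, adjusted p = 0.103, edgeR), and Cebpa, an adipocyte transcription factor, at 250.4 ± 50.1 against 117 ± 36.7 CPM (adjusted p = 0.154, edgeR). The groups did not overlap in either gene.

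**Figure D4:**
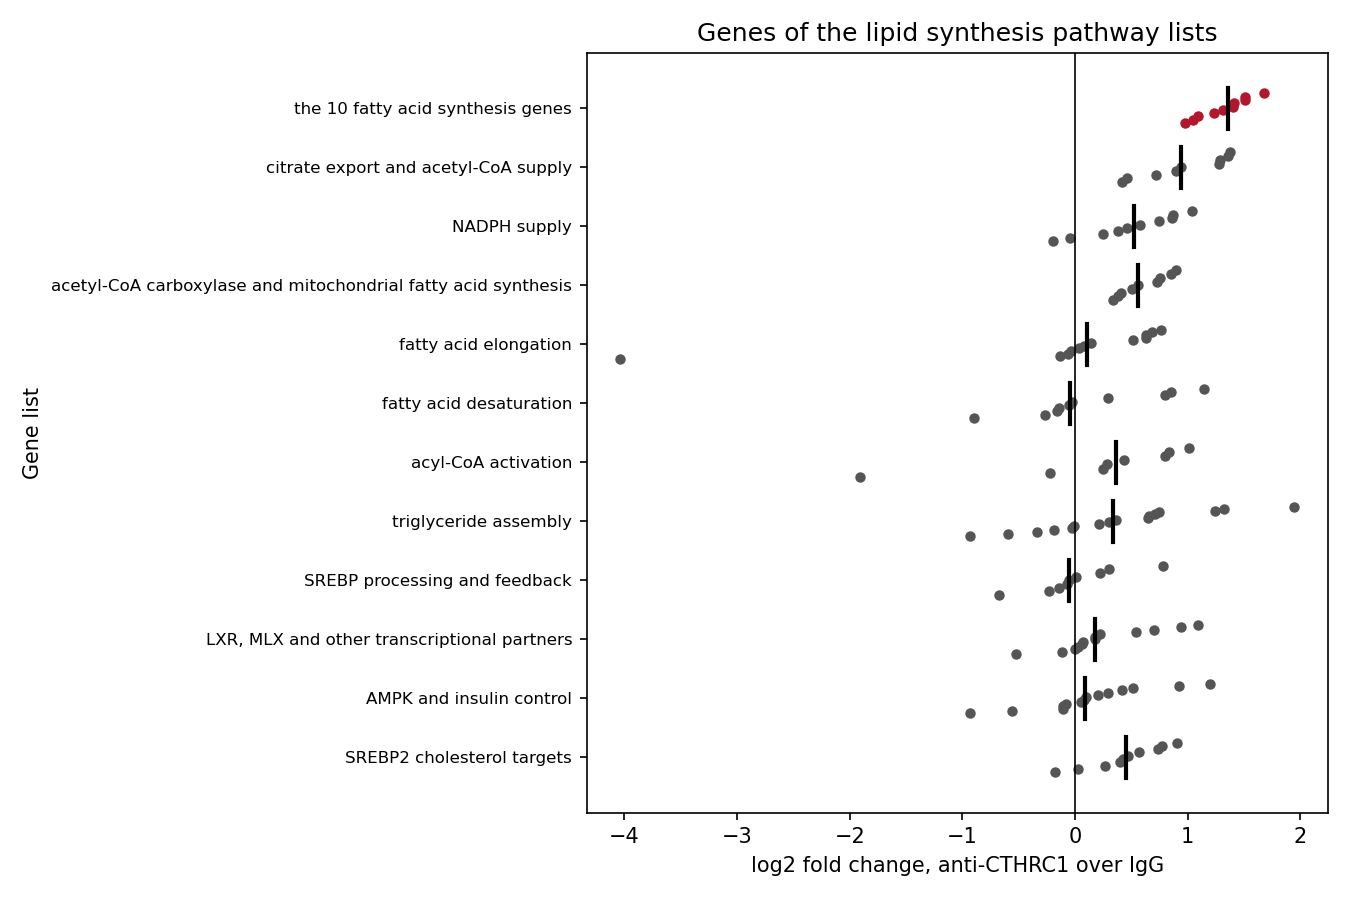
Log2 fold change of each tested gene, anti-CTHRC1 over IgG, in the 10 fatty acid synthesis genes (red) and 11 pathway lists (dark grey), with 1 point per gene and a black line at each median. The 10 genes lie between 0.97 and 1.67 with a median of 1.35, the next highest median is 0.94 for citrate export and acetyl-CoA supply, and the point at -4.04 is Elovl2.

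Genes with the most similar profile were sought among the 3 with the highest Pearson correlation of log2 CPM over the 6 libraries for each member, among 11012 other genes of at least 5 CPM. These correlations describe 6 libraries that fall into the 2 groups, so the points share group as well as library. Taking the 3 highest of 11012 values over 6 libraries also favours a high r for any profile, and shared control was not tested. For Fasn they were Fam57b, Slc25a1 (the mitochondrial citrate carrier) and Dhcr7 (a cholesterol synthesis enzyme), with r of 0.997, 0.997 and 0.996. Slc25a1 was also the closest to Scd2 (r = 0.9997), followed by Nsdhl, another cholesterol synthesis enzyme. Acss2, which makes acetyl-CoA from acetate, was among the closest to Acly (r = 0.994) after Nudt18, and Lss, lanosterol synthase, was the closest to Acaca (r = 0.997). Tmco1 was the third for Acly, and Nppa, a heart muscle marker, and Timm17b followed Lss for Acaca (both r = 0.997). For Srebf1 the closest were Cpt2, a fatty acid oxidation enzyme (r = 0.998), Kctd12b and Pfkfb1. For Thrsp they were Mrpl37 (0.999), Cd274 and Pgd, an NADPH-yielding enzyme of the pentose phosphate pathway (0.994). For Elovl6 the closest was Rnaset2a (0.995), and for Mlxipl they were Ly6a (0.9985), Gnas and Mpc2, a subunit of the mitochondrial pyruvate carrier (0.998). Scd1 was most like Enpp2 (0.992), Ctcflos and Cadm3, and Me1 most like Arsi (0.993), Ptger3 and Sipa1l3.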

How the data were processed

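Per the labels' protocols, aorta RNA went into strand-marking total RNA libraries read from both ends. HISAT2, StringTie and DESeq2, with GRCm38, are named in the submitters' processing notes, but their versions and roles are not given in the sources used here, nor is the way strand and reads with several matches were counted. Per the file headers, the authors deposited a raw count for each gene and library. An FPKM value, scaled by gene length and library size, was deposited beside it, per the file headers.

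The count test was edgeR 4.0.16 in R 4.3.3: filterByExpr by group, TMM scaling, robust quasi-likelihood F-tests (two-sided), adjusted by Benjamini-Hochberg over 19241 genes, threshold 0.05. All 6 libraries (64556253 to 67859566 counts) entered without covariates, and the biological coefficient of variation was 0.397. Standard errors came from the moderated F, and log2 CPM used a prior count of 2. On simulated data the step recovered 34% of 100 genes changed 2-fold and 78% of 100 genes changed 4-fold, with 4 false calls. Tried in its place were the Wald test of DESeq2 1.42.0, its size factors within edgeR, limma 3.58.1 (voom, or log2(FPKM + 1) and log2(FPKM + 0.1) where the mean reached 1 FPKM), no filter, a mean of 5 CPM, library sizes without mitochondrial and haemoglobin genes, an adipocyte covariate and leaving out libraries. DESeq2 with each library left out was chosen after seeing the data.

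The 10 genes and all lists were chosen with earlier results of these data known, so lists are described by counts and medians. The permutation test of the 10 genes minus the adipocyte markers used these same lists. Its smallest possible p, 0.1, is above the threshold, so it serves as description only. Named genes were the 10, list genes past the threshold, the 2 with the smallest p in each pathway list (for most marker lists 1 is printed), and for each of the 10 the 3 genes of 5 CPM or more most correlated with it. A few of the latter are not reported here. Elovl2, Scd4, Alb and the hepatocyte genes at 0 were named after their values were seen. The closest pair of libraries, antibody replicates 7 and 39, differed by a chi-square per degree of freedom of 40.1, above sampling noise. Groups of 3 are too small for the test for outlying samples, so none was run.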

Additional observations from a re-analysis of the deposited data

How the results depend on the processing

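All 10 log2 fold changes stayed positive under each alternative run, and the median of the 10 ran from 1.08 to 1.55 over edgeR fits that left out 1 library, was 1.18 on log2(FPKM + 1) and was 1.41 with the adipocyte covariate, where single genes ran from 0.26 (Srebf1) to 2.55 (Acly). The count of the 10 past the threshold, 0 in edgeR on all libraries (9 with an unadjusted p under 0.05), was 9 in DESeq2, and ran from 0 to 1 in edgeR when 1 library was left out. In DESeq2 it was then 10, 7 and 7 without antibody replicates 5, 7 and 39, and 9, 7 and 8 without IgG replicates 14, 18 and 20. In the same order, these DESeq2 fits called 6.05%, 2.85%, 2.28%, 6.07%, 3.17% and 7.78% of all genes with a count, in either direction. On that base the DESeq2 fit on all libraries called 4.83%. Elovl6 was called in DESeq2 only without antibody replicate 5, and Acly and Thrsp lost their DESeq2 call without antibody replicate 7 or 39 or IgG replicate 18, Thrsp also without IgG replicate 20. The count of all genes past the threshold, 61, was 1584 in DESeq2, 95 with no filter, 98 with a mean of 5 CPM, 0 without antibody replicate 39 and IgG replicate 14 together (2056 with an unadjusted p under 0.05) and 0 with the adipocyte covariate (699). With 1 library left out DESeq2 called 1949, 917 and 732 (antibody replicates 5, 7 and 39) and 1872, 1016 and 2506 (IgG replicates 14, 18 and 20), and edgeR from 0 to 227, its count being 0 without antibody replicate 7 or 39 or IgG replicate 18. The cause was not tested. The level relative to adipocyte markers ran from -0.55 to 0.23 when 1 library was left out, and was 0.06 on log2(FPKM + 1). No paired analysis was possible because the groups share no replicate number.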

Other observations

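Cholesterol synthesis and uptake genes, which SREBP-2 controls, had 9 of 10 positive log2 fold changes with a median of 0.45, and none passed in edgeR. Of the 10, 3 were higher with an unadjusted p under 0.05 (7.80% of all tested genes) and 3 were called higher in DESeq2 (2.78%). Hmgcs1, the synthase at the start of the pathway, averaged 66.8 ± 7.01 CPM with the antibody against 40.2 ± 6.47 CPM with IgG (SD, n = 3 each, adjusted p = 0.109, edgeR), and Lss at 20.6 ± 3.95 against 12.1 ± 1.07 CPM (adjusted p = 0.130, edgeR). In the list of AMPK and insulin control, with 9 of 14 positive and a median of 0.09, the insulin receptor substrates had fitted differences of opposite sign. Irs1 was at 58.8 ± 9.61 against 31.0 ± 9.92 CPM (log2 fold change 0.92, SE 0.24, adjusted p = 0.165, edgeR) and Irs2 at 21.2 ± 1.24 against 40.4 ± 13.3 CPM (-0.93, SE 0.24, adjusted p = 0.159, edgeR). The groups did not overlap in either gene, and neither passed in edgeR.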
